A study of Mus musculus with 20 samples.

Results

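Of 20 single glomerular podocytes, 5 contained RNA of genes that mark mesangial cells, the contractile cells of the kidney filter, alongside podocyte genes. Podocytes are epithelial cells whose foot processes cover the outside of the glomerular capillaries. The 5 cells were chosen by their own values: Gata3, a transcription factor used as a mesangial marker, was at 100 RPKM or more (reads per kilobase of gene, scaled to 1000000 reads). They are called Gata3-high here and are cells 5, 6, 10, 11 and 14, labelled GL_P_21, GL_P_23, GL_P_45, GL_P_50 and GL_P_67. The 14 Gata3-low cells had Gata3 below 100 RPKM and Pecam1, an endothelial adhesion molecule, below 1 RPKM. Cell 8, with 0.321 RPKM of Gata3, was left out because its Pecam1 level was 81.0 RPKM. Near the thresholds, the lowest Gata3-high cell had 693 RPKM of Gata3 and the highest Gata3-low cell 1.62 RPKM, and the highest Pecam1 level kept among Gata3-low cells was 0.786 RPKM. No upper limit on Pecam1 was set for Gata3-high cells, where it reached 0.665 RPKM.

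Both groups share every label: wild-type genotype, male sex, an age of 8 weeks, no treatment named, and 1 mouse. The strain is written C57BL/6 in the study's design and C56BL/6 in the sample labels. Glomeruli were enriched on magnetic beads and digested, and a Fluidigm C1 instrument captured cells in separate wells and made their cDNA. The cells of 1 mouse are not replicates and the division comes from the values themselves, so no p-value is given and each SD is the spread between cells. Mesangial RNA made in a podocyte and RNA of a mesangial cell held in the same well cannot be told apart in these libraries.

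Mesangial cells lie between the glomerular capillaries, hold the loops together, and secrete a matrix that surrounds them. They derive from the stromal lineage and share genes with pericytes and smooth muscle, the mural cells of vessels. Podocytes sit on the other side of the basement membrane, and signals pass between podocytes, endothelium and mesangium during the formation and upkeep of the filter.

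Reads assigned to genes numbered 6079323 to 8415343 in Gata3-high cells, against 4205562 to 10448491 in Gata3-low cells, with a median of 6445354 in Gata3-high and 6815090.5 in Gata3-low cells. In a gene of 1000 bases, 3 reads, the most that a count of 0 allows, correspond to 0.356 to 0.493 RPKM in Gata3-high cells and 0.287 to 0.713 RPKM in Gata3-low cells. A level of 1 RPKM was taken as the limit for calling a gene found. By that measure cells 5, 6, 10, 11 and 14 held 4092, 3425, 4977, 4536 and 3715 genes, against 2371 to 4082 (median 3033.5) in Gata3-low cells. The ranges overlapped, and 3 of the 5 Gata3-high cells lay above every Gata3-low cell. With each library thinned to 4045970 reads, 5834 to 7061 genes (median 6578) had a read in Gata3-high cells, against 4420 to 6885 (median 4902.5) in Gata3-low cells. The larger number of genes in Gata3-high cells did not come with more reads, and its part in the results below was not tested. Mitochondrial genes took 6.64% to 8.75% of the summed RPKM in Gata3-high cells and 4.61% to 12.1% in Gata3-low cells.

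**Figure D1:**
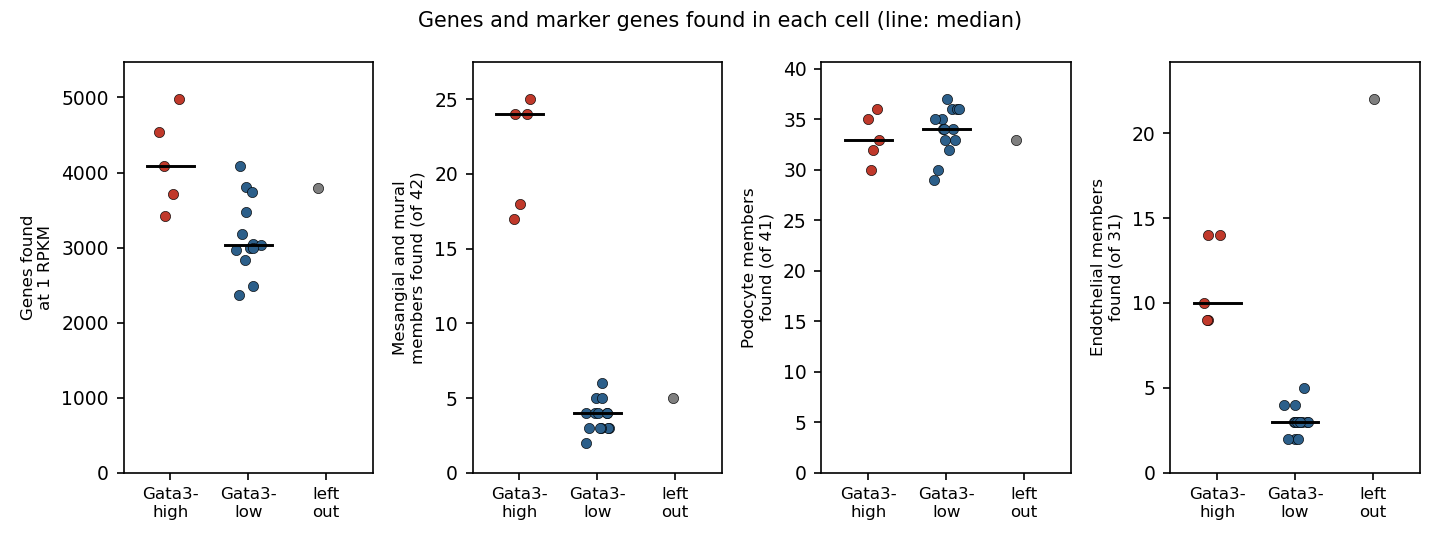
Number of genes, and of members of 3 marker lists, found at 1 RPKM or more in each cell (1 point per cell, line at the median). Gata3-high cells (red) held 17 to 25 of 42 mesangial and mural genes and Gata3-low cells (blue) 2 to 6, while the numbers of podocyte genes overlapped; grey is cell 8, left out of both groups.

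Gata3 and the other 3 markers given with the division, Sfrp2, Itga8 and Serpine2, were all high in the same 5 cells. In the sentences that follow, the 5 values of Gata3-high cells are in the order of cells 5, 6, 10, 11 and 14, and all levels are in RPKM. Gata3 (chromosome 2, 9857078 to 9890034, build GRCm38) had 1550.3, 1162, 1325, 693 and 733 RPKM in Gata3-high cells, against 0 to 1.62 (median 0.357) RPKM in Gata3-low cells. This corresponds to 4116 to 11937 reads in Gata3-high cells and 0 to 12 reads in Gata3-low cells. On the scale of log2(RPKM + 1) the mean was 10.02 ± 0.52 (SD, n = 5 cells) in Gata3-high cells and 0.53 ± 0.43 (SD, n = 14 cells) in Gata3-low cells. These values defined the groups and are a description only. Throughout, a difference is the mean log2(RPKM + 1) of Gata3-high cells minus that of Gata3-low cells; for Gata3 it was 9.50.

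Sfrp2, a secreted modulator of Wnt signalling (chromosome 3, 83766321 to 83774316), had 924, 564, 966, 1357 and 289 RPKM in Gata3-high cells, against 0 to 0.808 (median 0.0733) RPKM in Gata3-low cells. Its mean log2 level was 9.50 ± 0.87 (SD, n = 5) in Gata3-high and 0.23 ± 0.31 (SD, n = 14) in Gata3-low cells, a difference of 9.26. No Gata3-low cell held as much as 1 RPKM of Sfrp2, and the lowest Gata3-high cell, cell 14, held 289 RPKM. Itga8, the integrin subunit by which mesangial cells bind nephronectin (chromosome 2, 12106632 to 12301922), had 831, 245, 587, 919 and 94.8 RPKM in Gata3-high cells, against 0 to 0.842 (median 0) RPKM in Gata3-low cells, a difference of 8.49. Serpine2, a secreted inhibitor of thrombin and other serine proteases (chromosome 1, 79794197 to 79861180), had 844, 181, 1365, 128 and 754 RPKM in Gata3-high cells, against 0 to 0.226 (median 0.09901) RPKM in Gata3-low cells, a difference of 8.72. For all 3 genes the 2 groups of cells did not overlap, and on the log2(RPKM + 1) scale the gap between them was wider than the range within either group. Exons of Gata3, Sfrp2 and Itga8 overlap another annotated gene, and it is not given whether reads were counted by strand.

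A gene was compared where at least 3 of the 19 cells held 1 RPKM, which kept 7246 genes, and was called where the difference was at least 2 in either direction. Among all genes compared, 945 were higher in Gata3-high cells (13% of them) and 202 lower (2.79%). A stricter description counts genes whose lowest Gata3-high value lay above the highest Gata3-low value: there were 51 (0.704%), and 81 with cell 6 left out, while 0 genes (0%) lay wholly below, and 1 with cell 11 left out. Fewer cells meet such a condition more easily, so a rise on leaving out a cell says little about that cell. At a threshold of 1 RPKM, 26 genes (0.359%) were found in all 5 Gata3-high cells and in no Gata3-low cell. The median difference over all genes compared was 0.35.

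The list of 42 mesangial and mural genes was drawn up with earlier results of these cells known. It includes Gata3, which defined the groups, and the 3 other markers given with the division. Its counts are a description only, set beside 13% higher, 2.79% lower and 0.704% without overlap among all genes compared. Of the 42, 28 were found in at least 1 of the 19 cells, 24 entered the comparison, 21 were higher in Gata3-high cells and 0 lower. Groups did not overlap for 13 of the 42, Gata3 included, but for Des and S1pr3 the lowest Gata3-high cell held only 1 read, under the limit of 3 reads, so the separation of these 2 is not firm at this depth. Of the 42, 8 were found in all 5 Gata3-high cells and in no Gata3-low cell. The median difference over all 42 was 2.38. Since a gene seen mainly in Gata3-high cells enters the comparison only through them, the counts are given out of all members. By cell, cells 5, 6, 10, 11 and 14 held 24, 18, 25, 24 and 17 of the 42, against 2 to 6 (median 4) in Gata3-low cells.

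Among the 8 transcription factors of the list, 3 were higher. Ebf1, a factor of stromal and B cells, had 2.46, 0, 160.0, 142 and 0.0649 RPKM in Gata3-high cells, against 0 to 0.197 (median 0) RPKM in Gata3-low cells, a difference of 3.23. Only cells 10 and 11 held more than 100 RPKM of it. Nr2f2, a nuclear receptor of stromal and venous cells, was present in both groups, with 165, 154, 556, 374 and 109 RPKM in Gata3-high cells and 0.0362 to 259.7 (median 53.3) RPKM in Gata3-low cells. Its difference of 2.76 came with overlapping ranges. Foxd1, a factor of the stromal progenitors that is also made by podocytes, was found in 0 of 5 Gata3-high and 5 of 14 Gata3-low cells. It reached 0.792 RPKM in Gata3-high and 16.5 RPKM in Gata3-low cells, and its difference of -0.93 was below the size called. Tbx18, Heyl, Hic1 and Foxs1, factors of mural cells and fibroblasts, were found in none of the 19 cells.

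Among the 12 receptors and surface proteins, 6 were higher. Pdgfrb, the PDGF receptor required for mesangial cells to form, had 1.404, 56.4, 92.8, 29.6 and 0 RPKM in Gata3-high cells, against 0 to 84.4 (median 0) RPKM in Gata3-low cells, a difference of 3.25. It was at 0 in Gata3-high cell 14 and at 84.4 RPKM in Gata3-low cell 13, so it did not separate the groups. Itga1, a collagen-binding integrin subunit, had 57.3, 29.8, 17.1, 91.7 and 5.85 RPKM in Gata3-high cells, against 0 to 3.22 (median 0) RPKM in Gata3-low cells, a difference of 4.69 without overlap. Agtr1a, the angiotensin II receptor, had 25.9, 7.13, 279, 76.3 and 0 RPKM in Gata3-high cells, against 0 RPKM in all 14 Gata3-low cells, a difference of 4.43. Only cell 14 of the 5 lacked it. S1pr3, a sphingosine 1-phosphate receptor, had 110.5, 9.24, 0.0367, 25.5 and 118 RPKM in Gata3-high cells, against at most 0.0242 RPKM in Gata3-low cells, a difference of 4.36. Art3, an ADP-ribosyltransferase family member at the cell surface, had 0, 12.7, 421, 374 and 1.43 RPKM in Gata3-high cells, against 0 to 1.12 (median 0) RPKM in Gata3-low cells, a difference of 4.34. It was absent from cell 5 and above 300 RPKM in cells 10 and 11. Pdgfra, Mcam and Cspg4, markers of fibroblasts and pericytes, were each found in 2 Gata3-high cells and in no Gata3-low cell, too few cells to enter the comparison. Ednra, Notch3 and Thy1 were found in none of the 19.

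Of 6 signal regulators, 5 were higher, and Rgs4 was found in no cell. Gucy1a1 and Gucy1b1 encode the 2 subunits of soluble guanylyl cyclase, the nitric oxide receptor of contractile cells. Gucy1a1 had 13.6, 7.24, 86.2, 193 and 1.44 RPKM in Gata3-high cells, against 0 to 0.1098 (median 0) RPKM in Gata3-low cells, a difference of 4.43. Gucy1b1 had 597, 0.477, 94.4, 10.7 and 8.12 RPKM in Gata3-high cells, against 0 to 0.228 (median 0) RPKM in Gata3-low cells, a difference of 4.59. Neither subunit reached 1 RPKM in any Gata3-low cell, and the cell with most Gucy1b1, cell 5, was not the one with most Gucy1a1, cell 11. Rgs5, a regulator of G protein signalling typical of pericytes, had 397, 311, 126, 0.124 and 0.135 RPKM in Gata3-high cells, against 0 to 0.245 (median 0) RPKM in Gata3-low cells, a difference of 4.80. It split the Gata3-high cells, with 126 RPKM or more in cells 5, 6 and 10 and under 1 RPKM in cells 11 and 14. Fhl2, a LIM domain protein of muscle and mesenchyme, had 101, 1.29, 201, 307 and 2.71 RPKM in Gata3-high cells, against at most 0.109 RPKM in Gata3-low cells, a difference of 5.11. Pde3a, a phosphodiesterase of cyclic nucleotides, had 59.1, 0, 113, 35.9 and 0 RPKM in Gata3-high cells and 0 to 32.5 (median 0.0314) RPKM in Gata3-low cells, a difference of 2.76 with overlap.

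Contractile proteins were present only in part. Myl9, the myosin regulatory light chain of smooth muscle, had 192, 74.3, 625, 860.2 and 85.6 RPKM in Gata3-high cells, against 0 to 0.549 (median 0) RPKM in Gata3-low cells, a difference of 7.82 without overlap. Des, the intermediate filament desmin, had 18.03, 0.1002, 154, 2.13 and 1.37 RPKM in Gata3-high cells, against 0 RPKM in all 14 Gata3-low cells, a difference of 2.91. Desmin was above 20 RPKM only in cell 10. Cald1, caldesmon, had 1115, 462, 1492, 464 and 359 RPKM in Gata3-high cells and 0.0764 to 1317 (median 93.1) RPKM in Gata3-low cells, so its difference of 3.46 came with overlapping ranges. Mylk, myosin light chain kinase, differed by 0.10 and was found in all 19 cells. Smtn, smoothelin, differed by 1.99, just under the size called. Tpm2, a tropomyosin, was found in cell 10 alone of the 19, at 34.3 RPKM. Acta2, Tagln, Cnn1 and Myh11, the classic smooth muscle genes, were found in none of the 19 cells, and so were Ren1 and Akr1b7, markers of renin cells. At this depth a low level of these genes was not detectable.

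Several secreted mesangial proteins were found in every Gata3-high cell. Igfbp5, an insulin-like growth factor binding protein, had 163, 231, 421, 309 and 437 RPKM in Gata3-high cells, against 0 to 0.361 (median 0.07397) RPKM in Gata3-low cells, a difference of 8.07. Its mean log2 level was 8.20 ± 0.60 (SD, n = 5) in Gata3-high and 0.13 ± 0.12 (SD, n = 14) in Gata3-low cells. Ptn, the growth factor pleiotrophin, had 106, 104, 314, 289 and 182 RPKM in Gata3-high cells, against 0 to 0.421 (median 0.05303) RPKM in Gata3-low cells, a difference of 7.38. With Sfrp2 and Serpine2, these made 4 secreted members of the list, and all 4 were found in each Gata3-high cell and in no Gata3-low cell. Renin (Ren1), also secreted, was found in none of the cells compared. Igfbp5 was not limited to Gata3-high cells, since cell 8, outside both groups, had 361 RPKM.

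**Figure D2:**
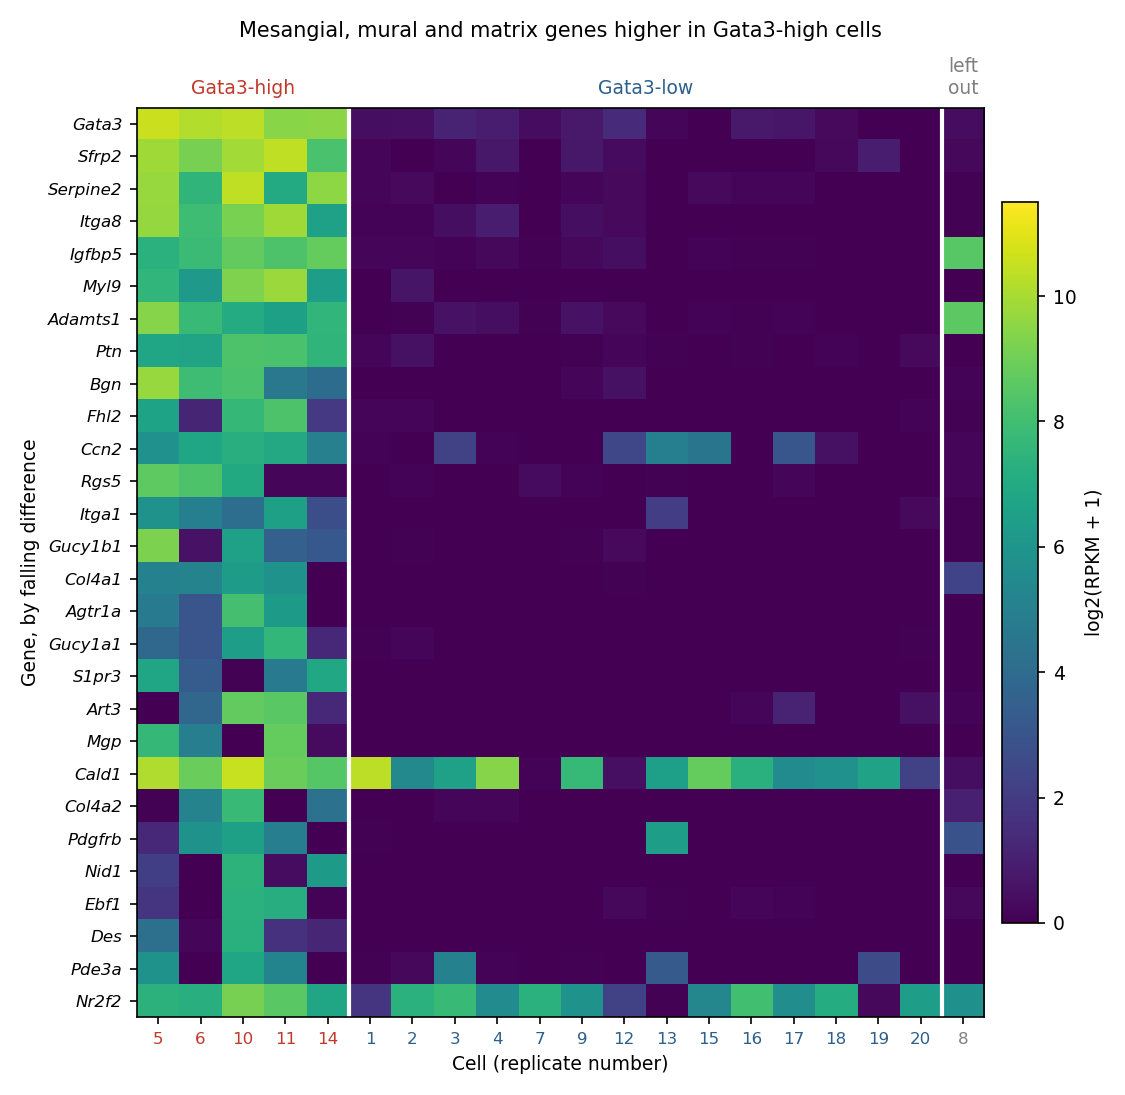
Level, as log2(RPKM + 1), of the 28 mesangial, mural and matrix genes higher in Gata3-high cells, in each of the 20 cells. Rows run from the largest difference (Gata3, 9.50) to the smallest (Nr2f2, 2.76); the upper rows are bright across all 5 Gata3-high cells and dark in the 14 Gata3-low cells, while lower rows are bright in only some of the 5.

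Some matrix genes were higher in Gata3-high cells. Of 26 mesangial and stromal matrix genes, 14 were found in some of the 19 cells, 9 were compared, 7 were higher (13% of all genes compared were) and 0 lower (2.79% of all), and the median difference over the 26 was 0.07. Bgn, the proteoglycan biglycan, had 859, 246, 297, 23.5 and 15.5 RPKM in Gata3-high cells, against 0 to 0.423 (median 0) RPKM in Gata3-low cells, a difference of 6.86. Adamts1, a secreted metalloproteinase that cleaves proteoglycans, had 682, 221, 134, 91.7 and 189 RPKM in Gata3-high cells, against 0 to 0.495 (median 0.0599) RPKM in Gata3-low cells, a difference of 7.51; cell 8 had 389 RPKM. Ccn2, connective tissue growth factor, had 56.1, 112, 150.1, 123 and 31.7 RPKM in Gata3-high cells and 0 to 30.6 (median 0.0909) RPKM in Gata3-low cells, a difference of 5.09. The Ccn2 groups met closely, at 31.7 RPKM in cell 14 and 30.6 RPKM in Gata3-low cell 13, without overlap.

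Col4a1 and Col4a2, the chains of the collagen IV network of the mesangium and of early basement membranes, were seen in Gata3-high cells and not, at 1 RPKM, in any Gata3-low cell. Col4a1 had 32.5, 34.3, 77.4, 59.1 and 0 RPKM in Gata3-high cells, against at most 0.0339 RPKM in Gata3-low cells, a difference of 4.48. Col4a2 had 0.0438, 34.6, 222, 0 and 19.3 RPKM in Gata3-high cells, against at most 0.161 RPKM in Gata3-low cells, a difference of 3.44. The 2 genes lie head to head and share exonic bases in the annotation. Col4a3, a chain of the mature basement membrane made by podocytes, had 3765, 7330.0, 3754, 4773 and 3152 RPKM in Gata3-high cells and 2148 to 20582 (median 4619) RPKM in Gata3-low cells, a difference of -0.18. Mgp, a matrix inhibitor of calcification, was above 1 RPKM in cells 5, 6 and 11 (202, 29.1 and 436 RPKM), and Nid1, the basement membrane linker nidogen, in cells 5, 10 and 14 (3.32, 171 and 75.1 RPKM). Both were at 0 in all 14 Gata3-low cells, with differences of 4.34 and 3.24. Timp3, an inhibitor of metalloproteinases found in all 19 cells, differed by 0.14, and Col1a2, a chain of collagen I, by -1.88, found in 2 of 5 Gata3-high and 12 of 14 Gata3-low cells. Fn1, Col1a1, Col3a1, Col6a1, Col6a2, Dcn and Lum, also members of this mesangial and stromal matrix list, were found in none of the 19 cells.

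The promoters of 4 of these genes are shown because Gata3 belongs to the GATA family, whose members bind short words with the core GATA. Each is the stretch of 250 bases before the start of the gene in RefSeq on GRCm38.p6, written 5′ to 3′ on the gene's strand, with capitals for any of the words AGATAA or AGATAG or TGATAA or TGATAG and their reverse complements. Sfrp2 lies at chr3:83766071-83766320 on the plus strand, and Itga8 at chr2:12301945-12302194, Fhl2 at chr1:43196762-43197011 and Gucy1b1 at chr3:82074712-82074961 on the minus strand.
Sfrp2: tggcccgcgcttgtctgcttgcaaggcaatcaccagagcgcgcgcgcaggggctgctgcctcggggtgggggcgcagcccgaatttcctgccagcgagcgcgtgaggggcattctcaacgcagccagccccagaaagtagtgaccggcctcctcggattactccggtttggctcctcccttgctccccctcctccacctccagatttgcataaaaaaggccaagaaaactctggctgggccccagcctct
Itga8: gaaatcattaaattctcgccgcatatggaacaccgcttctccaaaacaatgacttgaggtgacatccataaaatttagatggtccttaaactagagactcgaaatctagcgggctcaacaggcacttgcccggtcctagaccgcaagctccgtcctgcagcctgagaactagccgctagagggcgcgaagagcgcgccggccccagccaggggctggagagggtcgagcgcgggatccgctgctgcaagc
Fhl2: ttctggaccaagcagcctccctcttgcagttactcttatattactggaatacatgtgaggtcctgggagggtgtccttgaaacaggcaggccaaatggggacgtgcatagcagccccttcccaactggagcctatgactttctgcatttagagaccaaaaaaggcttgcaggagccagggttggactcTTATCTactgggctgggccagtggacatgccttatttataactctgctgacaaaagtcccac
Gucy1b1: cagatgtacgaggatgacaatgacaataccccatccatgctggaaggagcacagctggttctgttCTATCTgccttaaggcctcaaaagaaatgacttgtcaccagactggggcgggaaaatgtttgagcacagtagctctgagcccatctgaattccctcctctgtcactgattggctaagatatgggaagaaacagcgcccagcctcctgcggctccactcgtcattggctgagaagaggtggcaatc
Of the 28 higher mesangial, mural and matrix genes, 23 had a promoter in the RefSeq table, and 4 of the 23 (17.4%) held such a word: Fhl2, Rgs5, Gucy1b1 and Nr2f2. Among all 32851 promoters of the table the share was 26.5%. A match describes the letters only, and a promoter without one says nothing about binding elsewhere.

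The 5 Gata3-high cells differed among themselves in how much of the mesangial set they held. Cell 10 held 25 of the 42 mesangial and mural genes and cells 5 and 11 held 24 each, while cells 6 and 14 held 18 and 17. Cells 6 and 14 also had the fewest genes of any kind among the 5, 3425 and 3715. Cells 5, 10 and 11 had 4092, 4977 and 4536, and the part of this in the mesangial counts was not tested. Cell 14 had the lowest Sfrp2 and Itga8 of the 5 and was at 0 for Pdgfrb, Agtr1a and Pde3a. It also had the highest Igfbp5, at 437 RPKM. Cell 6 was at 0 for Ebf1 and Pde3a and had the highest Nphs1 of the 5, whereas cell 5, with the highest Gata3 and Bgn, had the lowest Nphs1. Over all genes compared, the Spearman correlation between 2 cells was 0.368 to 0.435 (median 0.389) for the 10 pairs of Gata3-high cells, 0.285 to 0.396 (median 0.350) for the 70 pairs across the groups and 0.302 to 0.424 (median 0.372) for the 91 pairs of Gata3-low cells. These ranges overlap, and the pairs share cells, so they are given as a description.

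Ligands and receptors that connect podocytes with the mesangium were set side by side. Of 40 such genes, 24 were found in some of the 19 cells, 21 were compared, 7 were higher (13% of all genes compared were), 2 were lower (2.79% of all), and the median difference over the 40 was 0.03. The higher ones were the ligands Sfrp2, Ptn, Ccn2 and Fgf1 and the receptors Itga8, Pdgfrb and Tek. Sfrp2 and Itga8 were given with the division, and Ptn, Pdgfrb, Ccn2 and Tek are also counted in the mesangial, matrix or endothelial lists. Only Fgf1 is on none of those lists, so the count of 7 is a description and not a separate result. Npnt, nephronectin, the ligand of the Itga8 integrin and a product of podocytes, had 148, 112, 334, 311 and 216 RPKM in Gata3-high cells and 3.79 to 798 (median 187) RPKM in Gata3-low cells, a difference of 0.68. Npnt was thus found in all 19 cells, so any gene found in the 5 Gata3-high cells shares libraries with it, Itga8 included. Itgb1, the partner subunit of Itga8, was found in all 19 cells with a difference of 0.24. Pdgfb, the ligand of Pdgfrb known from endothelium, was above 1 RPKM in cell 5 of the Gata3-high cells (40.97 RPKM) and in 2 Gata3-low cells, at most 8.14 RPKM.

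Fgf1, a fibroblast growth factor, had 7.27, 0.365, 4.64, 0.705 and 22.3 RPKM in Gata3-high cells, against 0 to 0.1001 (median 0) RPKM in Gata3-low cells, a difference of 2.24. Its groups did not overlap although 2 of the 5 values were under 1 RPKM. Cxcl12, a chemokine that podocytes secrete, was found in 1 of 5 Gata3-high and 7 of 14 Gata3-low cells, with a highest level of 7.44 RPKM in Gata3-high and 231 RPKM in Gata3-low cells, a difference of -2.15. Vegfa, the growth factor by which podocytes maintain the endothelium, had 72.3, 27.2, 146, 396 and 190.4 RPKM in Gata3-high cells and 89.7 to 697 (median 327) RPKM in Gata3-low cells. The difference for Vegfa, -1.30, was under the size called, and the ranges overlapped. Pdgfa, Angpt1, Tgfb1, Tgfb2, Igf1 and Wnt5a were found in none of the 19 cells.

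Podocyte genes were present in both groups at overlapping levels. Of 41 podocyte genes, 40 were found in some of the 19 cells, 21 in every one, 1 was higher in Gata3-high cells and 3 lower, and the median difference over the 41 was -0.45. The same counts over all genes compared, 13% higher and 2.79% lower, lean the other way. Cells 5, 6, 10, 11 and 14 held 33, 30, 36, 35 and 32 of the 41, against 29 to 37 (median 34) in Gata3-low cells. The mean log2(RPKM + 1) over the 41 genes was 5.39 to 6.03 in Gata3-high cells and 5.05 to 7.28 in Gata3-low cells. The Gata3-high cells thus carry the podocyte label by these genes, as do the Gata3-low cells. With the median difference of all genes subtracted from each difference, 8 podocyte genes were lower and 1 higher, and 6 were lower without cell 6, as also without cell 11.

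By role, none of the 8 slit diaphragm genes was higher and 1 was lower. Nphs1, nephrin, the adhesion molecule of the slit diaphragm (chromosome 7, 30458315 to 30487223), had 48.9, 1047, 163, 294 and 118 RPKM in Gata3-high cells and 66.9 to 1639 (median 349) RPKM in Gata3-low cells, a difference of -0.80. Cell 5 lay below every Gata3-low cell and cell 6 above most of them. Kirrel, the nephrin partner Neph1, had 0.385, 0.251, 3.79, 0.0539 and 0.8205 RPKM in Gata3-high cells and 0.175 to 247 (median 17.1) RPKM in Gata3-low cells, a difference of -2.64. It was found in 1 of 5 Gata3-high and 10 of 14 Gata3-low cells. Cd2ap, Magi2 and Tjp1, adaptors below the slit diaphragm, differed by -0.01, -0.71 and 1.23.

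Among transcription factors, Wt1, required for podocyte identity, had 934, 1491, 1144, 521 and 1449.9 RPKM in Gata3-high cells and 187 to 1729 (median 960.4) RPKM in Gata3-low cells, a difference of 0.25. Tcf21, a factor of podocytes and of kidney stroma, had 4.66, 625, 3.900, 322 and 38.5 RPKM in Gata3-high cells and 0.404 to 1019 (median 444) RPKM in Gata3-low cells, a difference of -2.26. Cells 5 and 10 were low and cells 6 and 11 were not. Without cell 5 the difference was -1.50, and without cell 10 it was -1.45, so either cell decides the call, and without both it was -0.16. Foxc2 and Dach1, other podocyte factors, differed by -1.75 and -1.76, and Lmx1b by -1.28, all under the size called. Of the secreted proteins, Bmp7, a growth factor of the nephron lineage, was at most 0.0707 RPKM in Gata3-high cells and had 0 to 122 (median 0.289) RPKM in Gata3-low cells, with a difference of -2.01, close to the limit, and was found in 0 of 5 Gata3-high and 6 of 14 Gata3-low cells. It was no longer called with medians in place of means (-0.35), with each cell rescaled to the same sum (-1.997) or with cell 8 kept (-1.87).

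The only gene of the 41 that was higher in Gata3-high cells was Pla2r1, the phospholipase A2 receptor known as the main autoantigen of human membranous nephropathy. It had 0, 0.257, 63.8, 39.3 and 463 RPKM in Gata3-high cells, against 0 to 0.603 (median 0) RPKM in Gata3-low cells, a difference of 4.02. It was found in cells 10, 11 and 14 and in no Gata3-low cell, so the Gata3-low cells do not bear out its place among podocyte genes. Without any 1 of cells 10, 11 and 14, Pla2r1 was found in too few cells to be compared. Thsd7a, another autoantigen of that disease, was found in all 19 cells, with 452, 542, 688, 437 and 227 RPKM in Gata3-high cells and 56.4 to 839 (median 438) RPKM in Gata3-low cells, a difference of 0.18. Of the surface and cytoskeletal proteins, Podxl, the sialomucin podocalyxin, differed by -0.42, Synpo, synaptopodin, by -0.59, and Actn4, an actin cross-linker, by 0.20. Cdkn1c, a cell cycle inhibitor of mature podocytes, had 801, 1772, 1502, 3049 and 1518 RPKM in Gata3-high cells and 356 to 3969 (median 1726) RPKM in Gata3-low cells, a difference of 0.07. The ranges of all these genes overlapped.

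**Figure D3:**
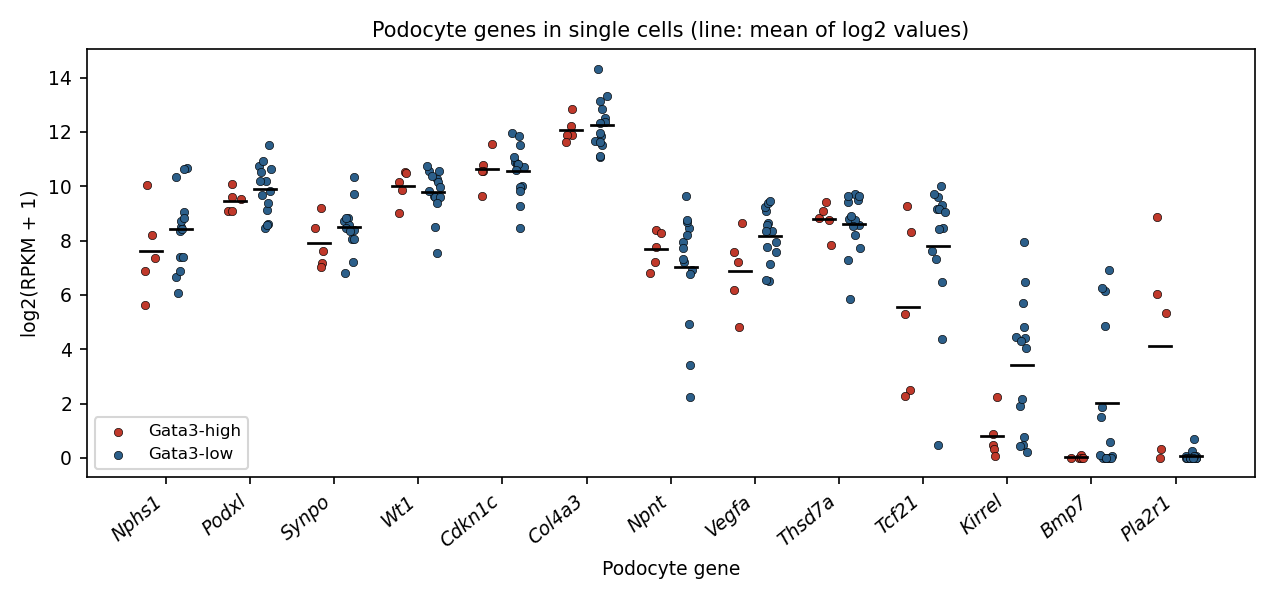
Level, as log2(RPKM + 1), of 13 podocyte genes in each of the 5 Gata3-high (red) and 14 Gata3-low (blue) cells, with a line at the mean. Points of both groups overlap for all 13 genes; Tcf21, Kirrel and Bmp7 (differences -2.26, -2.64 and -2.01) have lower means in Gata3-high cells, and Pla2r1 (4.02) is high in 3 of the 5.

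Some endothelial genes were higher in Gata3-high cells, while others, Pecam1 among them, were not found. Of 31 endothelial genes, 17 were found in some of the 19 cells, 14 were compared, 8 were higher in Gata3-high cells and 0 lower, and groups did not overlap for 3. Over all genes compared, 13% were higher, 2.79% lower and 0.704% without overlap. The median difference over the 31, which include 14 found in none of the 19 cells, was 0.14. Over all genes without the filter it was 0.0246. Cells 5, 6, 10, 11 and 14 held 14, 9, 14, 9 and 10 of the 31, against 2 to 5 (median 3) in Gata3-low cells and 22 in cell 8, and the mean log2(RPKM + 1) over the 31 was 1.39 to 2.87 in Gata3-high cells and 0.41 to 0.82 in Gata3-low cells. Pecam1, Kdr, Flt1, Tie1 and Cdh5, adhesion molecules and receptors of endothelium, were below 1 RPKM in each of the 19 cells. Emcn, Eng, Tek, Icam2 and Cd34, also markers of endothelium, were among the 8 higher genes. Pecam1 had at most 0.665 RPKM in Gata3-high cells and 0.786 RPKM in Gata3-low cells, where the limit of 1 RPKM was set by the choice of cells. Cdh5 was at 0 in all 19. The part of endothelial RNA in the other results was not tested.

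Fli1, an ETS factor of endothelium and blood that is also made in mesenchyme, had 12.5, 105, 213, 2.43 and 25.5 RPKM in Gata3-high cells, against 0 to 0.118 (median 0) RPKM in Gata3-low cells, a difference of 4.92. Ehd3, a trafficking protein of glomerular endothelium, had 172, 32.9, 142, 3.03 and 10.95 RPKM in Gata3-high cells, against 0 to 1.15 (median 0) RPKM in Gata3-low cells, a difference of 4.94. Cd34, a sialomucin of endothelial and stromal progenitors, had 3.36, 26.4, 417, 88.5 and 0.448 RPKM in Gata3-high cells, against 0 to 0.246 (median 0) RPKM in Gata3-low cells, a difference of 4.45. These 3 genes are the ones without overlap. Icam2, an adhesion molecule, had 6.57, 434, 233, 22.3 and 0 RPKM in Gata3-high cells, against 0 RPKM in all 14 Gata3-low cells, a difference of 4.82. Nrp1, a co-receptor of VEGF and semaphorins also used by mesenchyme, had 407, 184, 269.9, 456 and 404 RPKM in Gata3-high cells and 0.02500 to 355 (median 19.7) RPKM in Gata3-low cells, a difference of 4.44. Emcn, Eng and Tek, surface proteins of endothelium, were unevenly spread over the 5, with differences of 3.62, 3.64 and 2.71, the last of which was 1.54 without cell 11. Emcn had 315, 0.0623, 151, 7.65 and 0 RPKM and Eng 95.2, 5.36, 95.4, 0 and 5.36 RPKM in Gata3-high cells, against at most 0.795 and 0.4004 RPKM in Gata3-low cells. Without cells 5 and 10, which held most endothelial genes, fewer genes entered the comparison and 3 of the 31 were still called higher, and the median difference of the 42 mesangial and mural genes was 1.08 in place of 2.38.

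Of the genes of other cell types, a few were high in Gata3-high cells. Of 12 immune genes only Fcer1g, a signalling chain of immune receptors, was found, at 495 RPKM in cell 5. Outside that list, and chosen after its values were seen, Cd53, a tetraspanin of leukocytes, had 5327, 4141, 136, 2631 and 2 reads in Gata3-high cells, against 0 to 3 reads in Gata3-low cells, and differed by 5.20 on the log2(RPKM + 1) scale. None of 7 red cell genes was found in the 19 cells. Among 12 proximal tubule genes only Gatm, an enzyme of creatine synthesis, was found, in 0 of 5 Gata3-high and 5 of 14 Gata3-low cells, with a difference of -2.45, and of 11 genes of distal tubule and collecting duct only Calb1, a calcium-binding protein, at 1.21 RPKM in Gata3-high cell 14 and 1.62 RPKM in 1 Gata3-low cell. Of 10 genes of parietal epithelium, the cells that line the capsule, 1 was higher: Cp, ceruloplasmin, a copper-carrying ferroxidase, had 425, 433, 129.6, 134 and 0 RPKM in Gata3-high cells, against 0 to 0.587 (median 0) RPKM in Gata3-low cells, a difference of 6.19. No other parietal marker was called higher, and Krt7, a keratin, differed by 1.70 with overlapping ranges. The part of RNA from these cell types in the other results was not tested.

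Stress genes were described because enzyme digestion and capture are known to induce them. Of 102 genes in 6 lists (immediate early, heat shock, endoplasmic reticulum stress, oxidative stress, glucocorticoid targets, DNA damage and apoptosis), 62 were compared, 13 were higher in Gata3-high cells, 1 was lower, and for none of them did the groups separate without overlap. Over all genes compared, 13% were higher, 2.79% lower and 0.704% without overlap, against 13 of these 62 higher and 1 lower. With so small a share of all genes without overlap, finding none among 62 says little about stress genes. The median difference was 0.02 for the 25 immediate early genes, 0.75 for the 14 heat shock genes, 0.34 for the 16 endoplasmic reticulum genes, 0.62 for the 18 oxidative stress genes, 0.00 for the 15 glucocorticoid targets and -0.01 for the 16 genes of DNA damage and apoptosis. Of the immediate early genes only Btg2, an antiproliferative factor, was higher, with 1.21, 436, 40.1, 1.58 and 326 RPKM in Gata3-high cells and 0 to 516 (median 0.121) RPKM in Gata3-low cells, a difference of 2.77. Fos, Egr1 and Atf3, the genes most often induced by dissociation, were found in none of the 19 cells.

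Sgk1, a kinase induced by glucocorticoids and cell stress, had the largest difference of these lists: 2105, 0.568, 1372, 323 and 35.3 RPKM in Gata3-high cells, against 0 to 16.8 (median 0.134) RPKM in Gata3-low cells, a difference of 6.63. It was found in 4 of 5 Gata3-high and 2 of 14 Gata3-low cells, with cell 6 at the level of Gata3-low cells. Per1 and Sult1a1, other glucocorticoid targets, were higher by 2.03 and 2.12, while Fkbp5 was found in 0 of 5 Gata3-high and 3 of 14 Gata3-low cells and Tsc22d3 differed by 1.64. Of the chaperones, Hspa4 and Dnaja1 were higher, by 2.70 and 2.10, and Hspa8 and Hsp90ab1 differed by -0.08 and 1.09. Dnaja1 and Hspa8 share 17.9% and 47.4% of their 60-base words with other genes, so their counts are uncertain. Of the endoplasmic reticulum list, the transcription factors Atf4 and Xbp1 were higher, by 2.75 and 2.59, and the chaperone Hspa5 differed by 0.64. Mcl1, which blocks apoptosis, and Trp53, the p53 tumour suppressor, were higher by 2.50 and 2.58.

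Among oxidative stress genes, Sod2, Prdx1 and Prdx6, a mitochondrial superoxide dismutase and a pair of peroxiredoxins, were higher, by 2.12, 2.04 and 2.21. These differences lay close to the limit of 2, as did those of Per1, Sult1a1 and Dnaja1. All of them fall under it when the median difference of all genes compared, 0.35, is subtracted. The 1 lower stress gene was Cat, the peroxisomal enzyme catalase. It had 0.0701, 0, 0.09699, 0.177 and 0 RPKM in Gata3-high cells and 0.115 to 1243 (median 26.97) RPKM in Gata3-low cells, a difference of -4.82. Catalase was found in 0 of 5 Gata3-high and 10 of 14 Gata3-low cells, and the ranges overlapped, since 4 Gata3-low cells were also below 1 RPKM. None of 12 hypoxia targets and 0 of 16 proliferation genes was called, and the 12 protein-coding mitochondrial genes found had differences from -0.81 to 0.71.

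**Figure D4:**
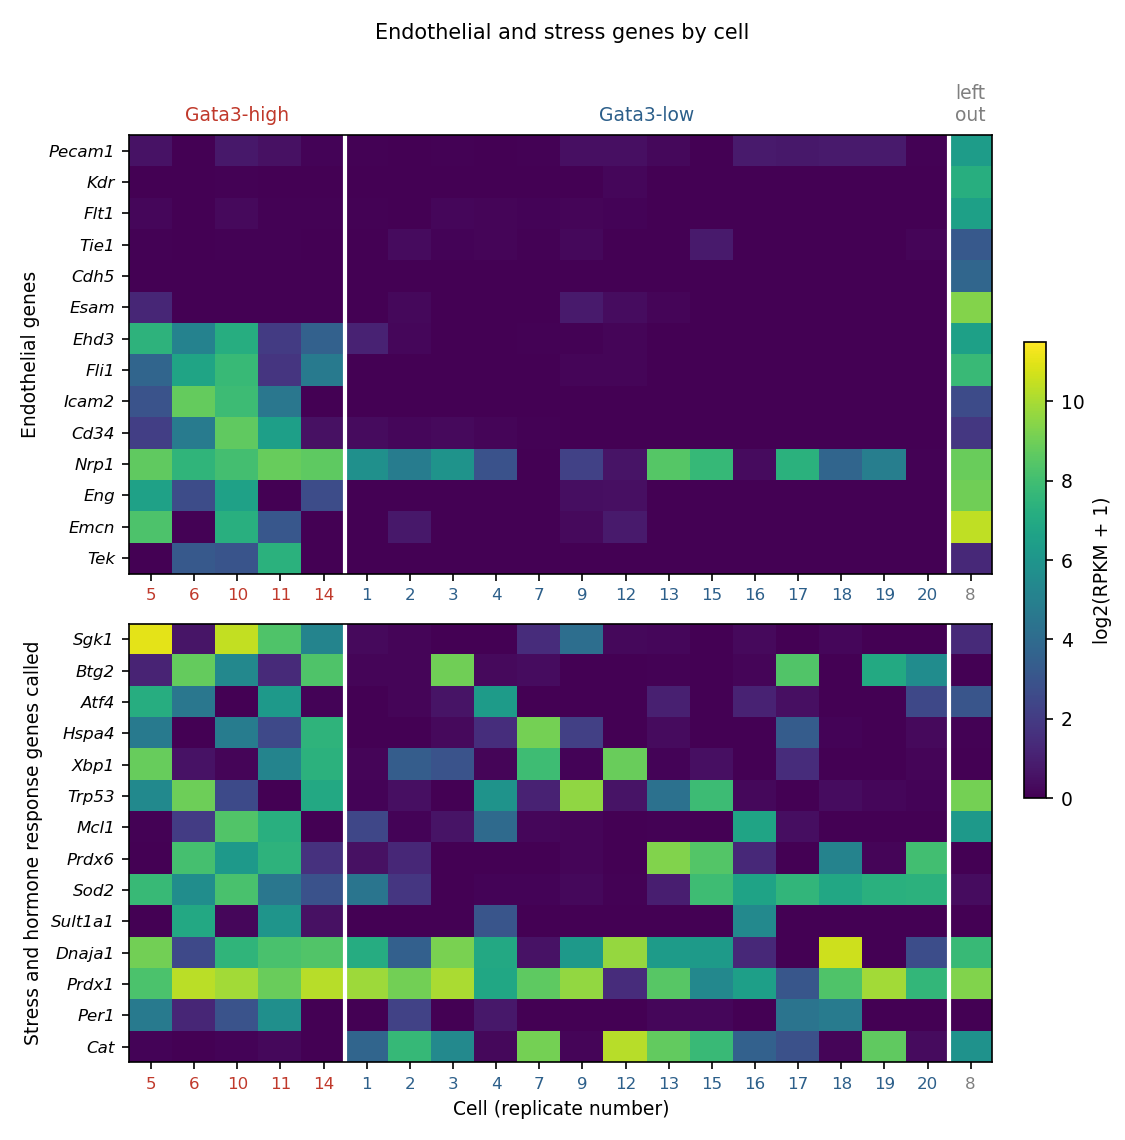
Level, as log2(RPKM + 1), of endothelial genes (upper panel) and of the stress and hormone response genes called (lower panel) in each of the 20 cells. The upper panel has Pecam1, Kdr, Flt1, Tie1, Cdh5 and Esam, and the 8 higher genes. Pecam1, Kdr, Flt1, Tie1 and Cdh5 are dark in all Gata3-high and Gata3-low cells and brighter in cell 8, while the lower panel has bright cells in both groups, except for Cat, dark in all 5 Gata3-high cells.

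Across all genes, the excess of higher over lower calls was spread over genes seen in only some of the 5 cells. Of the 945 genes higher in Gata3-high cells, 269 were found in all 5, 294 in 4, 289 in 3 and 93 in 2, and 129 were found in no Gata3-low cell. Of the 202 lower genes, 51 were found in no Gata3-high cell and 9 in all 5. Higher genes made 82.4% of the calls; with the median difference of 0.35 removed they made 65.6% (674 higher, 354 lower), and without the 7 Gata3-low cells with fewest genes 65.1% (817 higher, 438 lower). The 264 genes found in all 19 cells had a median difference of -0.06, from -2.44 to 2.37, with 4 higher and 2 lower. Genes higher through detection in more cells cannot be among these 264, so they do not bear on the excess.

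**Figure D5:**
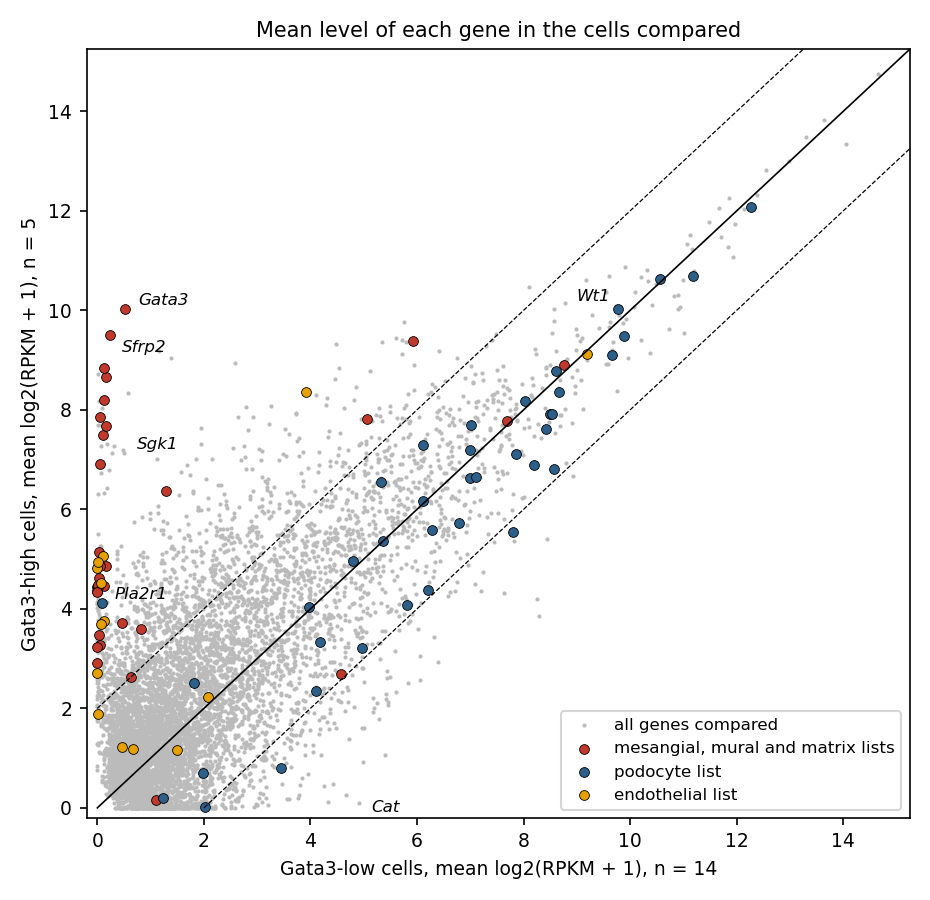
Mean log2(RPKM + 1) of each of the 7246 genes compared, in the 5 Gata3-high cells (vertical axis) against the 14 Gata3-low cells (horizontal axis); the solid line is equality and the dashed lines a difference of 2. Mesangial, mural and matrix genes (red) and some endothelial genes (orange) form a column at the left edge, near 0 in Gata3-low cells, while podocyte genes (blue) lie along the diagonal.

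The 51 genes without overlap and the 26 found in all 5 Gata3-high cells and in no Gata3-low cell all code for proteins. So do 917 of the 945 genes called higher, so this hardly sets them apart. Of the 26, 10 belong to the mesangial or matrix lists, and of the 51, 16 do. Cell 8 also held 8 of the 26 and 13 of the 51. Across all genes it held 3788 at 1 RPKM. Its share of the 7246 genes compared was not counted, so these counts show nothing particular to the 26 or the 51. Beyond the lists, the largest difference among genes found in at least 4 of the 5 was that of Ifitm3, an interferon-induced membrane protein. Ifitm3 (chromosome 7, 141009586 to 141010770) had 516, 299, 388, 312 and 688 RPKM in Gata3-high cells, against 0 to 0.2303 (median 0) RPKM in Gata3-low cells, a difference of 8.69. Lmo7, a LIM and PDZ domain protein of cell junctions, had 371, 162, 622, 145 and 369 RPKM in Gata3-high cells, against 0 to 0.127 (median 0) RPKM in Gata3-low cells, a difference of 8.15. Id3, an inhibitor of basic helix-loop-helix factors induced by BMP signals, had 567, 158, 725, 201 and 91.2 RPKM in Gata3-high cells, against 0 to 0.285 (median 0) RPKM in Gata3-low cells, a difference of 7.94. All 3 were at or near 0 in the Gata3-low cells, and Id3 was at 479 RPKM in cell 8.

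Further down the same ranking stood 3 secreted proteins. Adamts5, a proteoglycan-cleaving metalloproteinase, had 112, 178, 354, 224 and 245 RPKM in Gata3-high cells, against 0 to 0.154 (median 0.0348) RPKM in Gata3-low cells, a difference of 7.64. Dkk2, a secreted modulator of Wnt signalling, had 15.7, 179.9, 88.8, 243 and 202 RPKM in Gata3-high cells, against 0 to 0.218 (median 0) RPKM in Gata3-low cells, a difference of 6.66. Serpini1, the protease inhibitor neuroserpin, had 641, 15.4, 121, 303 and 223 RPKM in Gata3-high cells, against 0 to 0.322 (median 0) RPKM in Gata3-low cells, a difference of 7.20. None of these 3 secreted proteins reached 1 RPKM in a Gata3-low cell. Nostrin, which traffics nitric oxide synthase, had 219, 792, 636, 258 and 11.99 RPKM in Gata3-high cells, against 0 to 0.205 (median 0) RPKM in Gata3-low cells, a difference of 7.67. Rgs2, a regulator of G protein signalling, had 228, 425, 636, 1035 and 0.389 RPKM in Gata3-high cells, against 0 to 6.04 (median 0.0916) RPKM in Gata3-low cells, a difference of 6.96. Cell 14 alone among the 5 lacked Rgs2, and cell 14 also had the lowest Nostrin.

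Slc12a2, a sodium, potassium and chloride cotransporter, was even across the 5, with 309, 343, 272, 384 and 324 RPKM in Gata3-high cells, against 0 to 198 (median 0) RPKM in Gata3-low cells, a difference of 7.78. Its single Gata3-low cell above 1 RPKM was cell 9, at 198 RPKM. Maf, a bZIP transcription factor, had 61.9, 103, 321, 119 and 406 RPKM in Gata3-high cells, against 0 to 4.01 (median 0) RPKM in Gata3-low cells, a difference of 7.13. Sorbs2, an adaptor of the actin cytoskeleton, had 178, 3.099, 741, 173 and 179 RPKM in Gata3-high cells, against 0 to 0.472 (median 0.135) RPKM in Gata3-low cells, a difference of 6.57. Both were thus found in all 5 Gata3-high cells, Maf also in 1 Gata3-low cell. The remaining genes of the 20 largest were Sept4, Cep112, Sh3rf1, Zfand5, Cpm, Gstm1, Efr3a, Hs3st3b1 and Lhfp, with differences from 6.87 for Sept4 to 5.48 for Lhfp. Gstm1 shares 19.3% of its 60-base words with other genes, so reads of its relatives may be counted with it.

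The genes lower in Gata3-high cells overlapped between the groups in every case. Among genes found in at least 10 of the 14 Gata3-low cells, the most negative difference beyond the lists was that of Tsc22d1, a leucine zipper regulator induced by TGF-beta. It had 0.737, 0.534, 29.3, 20.6 and 369.8 RPKM in Gata3-high cells and 0.983 to 1742 (median 606) RPKM in Gata3-low cells, a difference of -4.42. Eif3e, a subunit of a translation initiation factor, had 0.617, 0.101, 0, 16.2 and 0.317 RPKM in Gata3-high cells and 0 to 642 (median 95.8) RPKM in Gata3-low cells, a difference of -4.33. For both genes 1 Gata3-high cell, cell 14 for Tsc22d1 and cell 11 for Eif3e, held more than each of the other 4. Mmp23, a metalloproteinase, had 0.389, 0.169, 14.4, 0 and 0 RPKM in Gata3-high cells and 0 to 449 (median 55.9) RPKM in Gata3-low cells, a difference of -4.06. Shisa3, a membrane protein of the Shisa family, was found in all 14 Gata3-low cells, with 2.17, 128, 38.4, 105 and 0.834 RPKM in Gata3-high cells and 8.37 to 792 (median 305) RPKM in Gata3-low cells, a difference of -3.31. The other 11 of the 15 were Ap2m1, St6galnac3, Akr1b3, Siva1, Fryl, Copb1, Mapre1, Cdv3, Ctnnal1, Slc31a2 and Rnf181, with differences from -4.05 to -3.32. Ap2m1 and Cdv3 share 40.4% and 10.97% of their 60-base words with other genes, so their counts are uncertain.

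The genes most like Gata3 over the 20 cells, cell 8 included, were ranked by the Spearman correlation of log2(RPKM + 1) among 7479 genes found in at least 3 cells. The values were 0.88 for Itga8, 0.81 for Mrvi1, a partner of cGMP kinase in smooth muscle, 0.80 for Adamts5, 0.78 for Bgn and 0.78 for Plod1, a lysyl hydroxylase of collagen. They were followed by Hs3st3b1, Lmcd1, Gtf2h3, Adamts1, Gucy1b1, Piezo2, Serpine2, Des, Igfbp5 and Acap2, down to 0.75. Of these 15 genes, 7 are in the mesangial or matrix lists, 2 are among the 20 largest differences beyond the lists, and 11 were found in no Gata3-low cell. Since the 20 cells fall into 5 with high Gata3 and the rest near 0, the correlation mainly restates the division and is given without a test. For Sfrp2, which is not among the 15, it was 0.68.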

How the data were processed

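The values analysed were RPKM for 39179 Ensembl genes in 20 single cells, in 1 table deposited by the authors. The submitters' processing notes name the aligner TopHat2 2.0.12, the counter HTSeq 0.6.1 and genome build GRCm38, with strand and multiple-alignment settings not given in the sources used here. A single blank value (1 of the table) was read as 0. Symbols and coordinates came from GENCODE M21, which matched 37607 IDs, and promoters from RefSeq. Library totals were recovered from the steps between low RPKM values, and genes found were also counted after thinning to 4045970 reads. Limits from 3 reads cover counting error only, since reads of amplified cDNA are not separate molecules. The deposited RPKM follow the authors' gene lengths, which for many genes are the mean of their transcripts, so order between genes is less certain than between cells.

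Cells were divided by Gata3 (100 RPKM or more, or below) and Pecam1 (below 1 RPKM in the lower group). Members and gene lists were chosen with earlier results of these data known. Genes at 1 RPKM or more in at least 3 of 19 cells were compared by the difference of mean log2(RPKM + 1), called at 2. A pseudocount of 1 understates differences of low genes. Named beyond the 20 lists were the 20 most positive differences among genes found in at least 4 Gata3-high cells, the 15 most negative among genes found in at least 10 Gata3-low cells and the 15 genes most like Gata3. Predicted genes, pseudogenes and genes without a symbol were counted, not described. Alternatives were a pseudocount of 0.1, no filter and a mean of at least 10 RPKM, medians in place of means, rescaling of each cell, keeping cell 8, and leaving out cells. Removing the median difference and leaving out the 7 Gata3-low cells with fewest genes were chosen after seeing the data. Read recovery and the comparison were tested on simulated data. Python 3.11.15, numpy 2.4.6, pandas 2.3.3, scipy 1.17.1 and matplotlib 3.10.9 were used.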

Additional observations from a re-analysis of the deposited data

Results flagged for a closer look

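In 4 of 23 measures made on each Gata3-high cell, 1 of the 5 cells stood apart from its nearest neighbour. The gap was more than 0.71 of the range of the 5 values. The cells come from 1 mouse and many values lie at 0, so whether 4 is more than chance gives was not tested. Cell 5 had the most reads of the 5, 8415343. Its mean log2(RPKM + 1) over the 12 immune genes was 0.75, which came from Fcer1g, while 3 of the other 4 cells were at 0. Over the 16 genes of DNA damage and apoptosis cell 5 had the lowest mean, 0.60. Cell 11 had the highest mean over the 16 proliferation genes, 0.83, with Tyms at 112 RPKM and Pcna at 22.3 RPKM. The parts of these cells in the comparisons appear in the values with 1 cell left out.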

How the results depend on the processing

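All values of 75 named genes kept their direction under 14 alternatives each (1050 values), and 55 of the 1050 moved by more than the spread between cells. These genes were named for their differences in the same data, and a filter cannot change a difference. A kept direction was thus largely fixed in advance. Sizes were not kept: Tcf21 reached -0.16 without cells 5 and 10, and Bmp7 -0.35 with medians. With 1 Gata3-high cell left out, the counts were 901 to 1119 genes higher, 220 to 266 lower, 52 to 81 wholly above, 0 to 1 wholly below and 28 to 39 found in every Gata3-high and no Gata3-low cell. Conditions on every Gata3-high cell are easier to meet with fewer cells. Podocyte genes, with 1 Gata3-high cell left out, numbered 0 to 1 higher and 4 to 6 lower. A pseudocount of 0.1 gave 1839 genes higher, 486 lower, a median difference of 0.70, a median of 3.30 for mesangial and mural genes and 7 podocyte genes lower. Without a filter the median difference over genes was 0.0246. Medians in place of means gave 2 podocyte genes higher and 5 lower. Without cells 5 and 10, 340 genes were lower, 1 lay wholly below, the mesangial and mural median was 1.08, 0 podocyte genes were higher and 3 endothelial genes were. Chosen after seeing the data, removal of the median difference gave 354 genes lower, a median of 0, 8 podocyte genes lower and a podocyte median of -0.80. Leaving out the 7 Gata3-low cells with fewest genes, also chosen then, gave 438 genes lower, 6 wholly below and 7 podocyte genes lower. Counted above 0 RPKM, the median number of genes was 1825 larger in Gata3-high cells, and 1058.5 larger at 1 RPKM. The causes of these shifts were not tested. No paired analysis was possible because all cells come from 1 mouse and form 1 group in the labels. Depth limits genes under about 1 RPKM, and 5 cells limit every statement about the Gata3-high group.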

Other observations

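Cell 8, outside both groups, had a Pecam1 level of 80.96 RPKM and held 22 of the 31 endothelial genes, 33 of the 41 podocyte genes and 5 of the 42 mesangial and mural genes. Among endothelial receptors and adhesion molecules, it had 148 RPKM of Kdr, 93.2 RPKM of Flt1, 1337 RPKM of Emcn, 521 RPKM of Eng and 660.4 RPKM of Esam. Of the genes high in Gata3-high cells, it had 361 RPKM of Igfbp5, 389 RPKM of Adamts1, 479 RPKM of Id3, 352 RPKM of Gstm1, 224 RPKM of Fli1 and 97.1 RPKM of Flna, an actin cross-linker. The 4 markers given with the division were at or below 0.321 RPKM there, with Sfrp2 at 0.197 RPKM, Itga8 at 0.0465 RPKM and Serpine2 at 0.0432 RPKM. A single cell gives no comparison, and these values stand as a description.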
